A study of Mus musculus with 6 samples.

Results

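Gadd45a, Gadd45b, Gadd45g, Cdkn1a, Mdm2, Trp53, Ccng1, Sesn2 and Phlda3 were read as a set in mouse 4-cell embryos: the 3 Gadd45 genes, the p53 gene, and 5 genes that p53 is known to switch on. The 9 were picked by symbol out of 55335 genes in the files, with their values in these libraries already known, so their own differences between groups are given as descriptions and not as tests. Gadd45a rose 12.9-fold in embryos released from a transcription block, while Cdkn1a, Mdm2, Trp53, Ccng1, Sesn2 and Gadd45b overlapped between the groups. Phlda3 was lower in every DRB library than in any Con library, and near 0 there. Gadd45g was low in both groups but, like Gadd45a, higher in every DRB library (0.99 to 6.4 FPKM) than in any Con library (0 to 0.58 FPKM); it was too low to be tested.

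There were 2 groups of 3 libraries, each made by Smart-Seq2, a protocol that primes polyadenylated RNA with oligo-dT and amplifies whole cDNAs from a few cells. DRB embryos were mouse zygotes kept in KSOM, an embryo culture medium, with 20 µM DRB, a nucleoside analogue that stops RNA polymerase II elongation by inhibiting CDK9, from 6 h after fertilization for 20 h, then washed and grown without it for 26 h. Con embryos, also taken at the 4-cell stage, are the control group; whether they received vehicle, and their culture times, are not given in the labels, nor are strain or the number of embryos per library. Values are FPKM, fragment numbers scaled to transcript length and to library size, so levels of different genes can be compared per length.

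The Gadd45 proteins are small stress sensors that bind the kinase MAP3K4, the CDK1-cyclin B1 complex and PCNA, and Gadd45a has been tied to DNA repair and active DNA demethylation. Gadd45a is a classical p53 target, but it is also induced without p53 through octamer and CCAAT elements of its promoter, which bind the factors Oct-1 (Pou2f1) and NF-Y. Cdkn1a (the CDK inhibitor p21), Mdm2 (the ubiquitin ligase that degrades p53), Ccng1 (cyclin G1), Sesn2 (an inhibitor of mTORC1) and Phlda3 (an inhibitor of AKT) are standard readouts of p53 activity.

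The promoters of the Gadd45 genes are shown first, with those of Cdkn1a and Ccng1, the targets whose windows held a p53 response element. They are the bases upstream of the outermost annotated start, read 5′ to 3′ on the gene's strand from RefSeq windows of build GRCm38.p6. The positions are chr6:67037458-67037657 on the minus strand for Gadd45a, chr10:80929841-80930072 on the plus strand for Gadd45b and chr13:51846425-51846674 on the plus strand for Gadd45g. For Cdkn1a, at its upstream start, it is chr17:29090729-29090975 on the plus strand, and for Ccng1 chr11:40755312-40755536 on the minus strand. Capitals mark the octamer ATTTGCAT, the CCAAT box and the p53 response element, on either strand.
Gadd45a: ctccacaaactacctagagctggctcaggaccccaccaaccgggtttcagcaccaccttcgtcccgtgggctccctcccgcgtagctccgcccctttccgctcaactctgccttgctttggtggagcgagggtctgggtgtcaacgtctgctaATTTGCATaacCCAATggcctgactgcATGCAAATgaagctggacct
Gadd45b: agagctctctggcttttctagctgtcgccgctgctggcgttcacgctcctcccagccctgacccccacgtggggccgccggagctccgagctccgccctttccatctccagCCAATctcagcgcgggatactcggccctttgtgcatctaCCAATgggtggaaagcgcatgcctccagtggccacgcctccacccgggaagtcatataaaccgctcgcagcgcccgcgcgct
Gadd45g: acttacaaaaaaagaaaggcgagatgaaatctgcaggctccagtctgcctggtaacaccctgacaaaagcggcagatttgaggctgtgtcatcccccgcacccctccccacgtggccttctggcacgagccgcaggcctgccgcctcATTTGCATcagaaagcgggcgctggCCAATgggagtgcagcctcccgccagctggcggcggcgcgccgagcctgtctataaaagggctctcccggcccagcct
Cdkn1a: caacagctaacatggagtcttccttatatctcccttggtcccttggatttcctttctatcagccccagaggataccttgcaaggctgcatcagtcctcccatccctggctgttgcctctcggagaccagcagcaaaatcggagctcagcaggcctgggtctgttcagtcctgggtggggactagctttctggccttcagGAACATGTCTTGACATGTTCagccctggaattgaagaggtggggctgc
Ccng1: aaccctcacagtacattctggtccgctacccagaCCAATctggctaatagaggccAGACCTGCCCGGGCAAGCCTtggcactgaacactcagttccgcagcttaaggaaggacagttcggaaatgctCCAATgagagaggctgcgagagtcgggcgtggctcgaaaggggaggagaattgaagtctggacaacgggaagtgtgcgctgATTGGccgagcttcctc

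The Gadd45a promoter held 2 octamers, ATTTGCAT from 97 to 90 bases and its reverse complement ATGCAAAT from 70 to 63 bases upstream of the RefSeq start, with a CCAAT box between them. Gadd45g held 1 octamer and a CCAAT box, and Gadd45b held 2 CCAAT boxes and no octamer in this window. An octamer was present in 1.74% of the 32851 RefSeq windows of 300 bases (250 before and 50 after a start), and 2 or more in 0.107% of them. A CCAAT box is common, with 37.4% of windows holding one. The windows of Trp53 and of the targets Mdm2, Ccng1 and Sesn2 held CCAAT boxes too, and those of Cdkn1a and Phlda3 held none. Whether this element bears on the levels was not tested. The p53 response element was searched as 2 abutting copies of the consensus decamer with at most 1 mismatch, the inner C and G of each copy being kept, and 22 windows (0.067%) held one. Among them were Cdkn1a, with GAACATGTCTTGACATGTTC at its upstream start, 2790 bases before its other RefSeq start, and Ccng1, with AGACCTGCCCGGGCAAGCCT. No other member's window held this element, which says nothing of introns or more distant sequence. Other elements were searched on both strands too. The TATA box TATAAA, held by 13.6% of windows, stood in those of Gadd45b, Gadd45g and Trp53 and not in that of Gadd45a. It began 46 bases upstream in Gadd45b and 27 in Gadd45g, but 248 in Trp53, where it lay on the reverse strand. The GC box GGGCGG was in 35.7% of windows and in those of Gadd45a, Gadd45b, Cdkn1a, Mdm2, Sesn2 and Phlda3. The forkhead site GTAAACA was in 3.65% of windows and, of the members, in Mdm2 alone. The E-box CACGTG was in 7.15% of windows and in those of Gadd45b, Gadd45g and Trp53. No member's window held the cAMP response element TGACGTCA (1.79% of windows), the CHOP-ATF4 element TGATGCAAT (0.192%), the AP-1 site TGAGTCA (5.20%) or the Egr site GCGTGGGCG (0.612%). In the sequences shown the octamers and CCAAT boxes share no base.

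Depth was estimated at 21600000 to 24800000 fragments a library and overlapped between the groups. Pairs of Con libraries had a Pearson's r of 0.935 to 0.944, pairs of DRB libraries 0.909 to 0.937, and mixed pairs 0.869 to 0.915. Con replicate 1 stood apart: 22102 genes were above 0 FPKM in it, where the other libraries had 18485 to 19895. Of 11 egg and embryo markers, Dppa3, a maternal factor, was by far the highest, at 13434 to 24780 FPKM. Nr5a2 came next, at 36.65 to 89.22 FPKM, and several egg genes were low, such as Ooep at 0.5 to 7.14 FPKM. The cumulus cell genes Has2, Ptx3, Cyp19a1, Cyp11a1 and Fshr were at 0 in all libraries. Summed over 10 cumulus markers the level was 213.03 to 387.13 FPKM in Con and 144.3 to 275.8 in DRB, most of it Gja1, which embryos also express, and the rest nearly all Amhr2. Over 8 sperm markers it was 12.7 to 22.7 and 12.3 to 24.2 FPKM, with Tnp2 and Smcp at 0, and over 8 blood cell markers 77.5 to 123.3 and 59.8 to 102.4 FPKM. The sums of all 3 lists overlapped between the groups, and their part in the results was not tested.

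Gadd45a (ENSMUSG00000036390.8, chromosome 6, 67035096 to 67037457, minus strand, GRCm38) stood at 3.06, 2.99 and 2.47 FPKM in Con replicates 1 to 3. In the DRB libraries it was at 55.94, 32.55 and 21.2 FPKM. The Con libraries lay close together, every DRB library was above them, and the DRB libraries differed among themselves, with replicate 1 the highest. The means were 2.84 ± 0.322 and 36.6 ± 17.7 FPKM (SD, n = 3 each), a DRB minus Con difference of 3.19 ± 0.41 on the log2(FPKM + 1) scale (SE). By that difference Gadd45a ranked 46 of 11893 genes that reached at least 1 FPKM in at least 3 libraries. If all its fragments came from the 1223-base transcript, they numbered about 57 to 75 in Con and 560 to 1400 in DRB libraries. Counting error of fragments is small beside that gap. Fragments of amplified cDNA are not separate RNA molecules, and the number of those is not known. If the fragments came from shorter transcripts, their numbers would be lower in both groups. Gadd45a had been singled out for this rise, so its size and the call given next only describe these libraries and are no test of it. Of the 9 members 8 passed the filter, and 1 of them, Gadd45a, was called higher at a limma adjusted p below 0.05, with 0 called lower. Of all tested genes 2.48% were called, 1.53% higher and 0.95% lower, and nothing is read from the members' count. With no filter on low values (27554 genes) Gadd45a was no longer called.

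An antisense transcript, E230016M11Rik, overlaps Gadd45a by 859 bases, and Smart-Seq2 does not keep strand. It was at 3.02 FPKM in DRB replicate 2, at 0.17 FPKM in Con replicate 1 and at 0 in the other 4 libraries, among them DRB replicate 1, where Gadd45a was highest. Reads in the overlap cannot be assigned to a strand in these data.

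**Figure D1:**
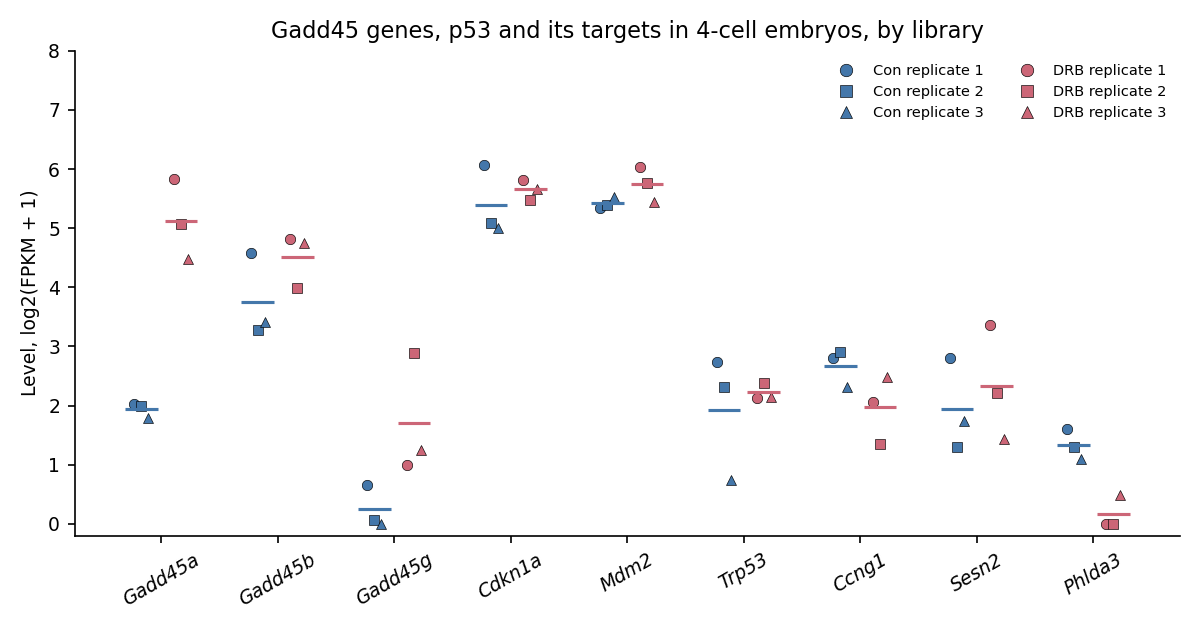
Level of the 9 genes in each library as log2(FPKM + 1), with Con in blue and DRB in red, symbols for replicates and bars for the group means. Gadd45a is the member whose 3 DRB libraries (21.2 to 55.94 FPKM) lie farthest above the 3 Con libraries (2.47 to 3.06 FPKM), while Phlda3 lies lower in DRB.

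Gadd45b, the family member best known for induction by NF-kB and TGF-beta, stood at 22.79, 8.75 and 9.63 FPKM in Con and 27.18, 14.93 and 25.77 FPKM in DRB. Con replicate 1 lay among the DRB libraries, so the groups overlapped, and the difference was 0.76 ± 0.43 on the log2(FPKM + 1) scale (SE). Without Con replicate 1 the groups did not overlap and the difference was 1.17, at means of 9.19 and 22.6 FPKM. Leaving out DRB replicate 2 likewise ended the overlap, with a difference of 1.02. Among all tested genes 32.8% did not overlap without Con replicate 1 and 31.9% without DRB replicate 2, in one direction or the other. Those higher in DRB were 14.6% and 12.4% of tested genes.

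Gadd45g was the lowest of the family in every library. It was at 0.58, 0.05 and 0 FPKM in Con and at 0.99, 6.4 and 1.38 FPKM in DRB, about 0 to 12 fragments in a Con library and 21 to 130 in a DRB library. The groups did not overlap, but the highest DRB value came from replicate 2 alone, and without it the difference fell from 1.47 to 0.88 on the log2(FPKM + 1) scale. Gadd45g reached 1 FPKM in 2 libraries and so was not among the tested genes.

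As a family the 3 genes summed to 26.4, 11.8 and 12.1 FPKM in Con and 84.1, 53.9 and 48.4 FPKM in DRB. Gadd45b made up most of the sum in Con, 74.2% to 86.2%, with Gadd45a at 11.6% to 25.4%. In DRB replicates 1 and 2 Gadd45a held 66.5% and 60.4%, and in DRB replicate 3 it held 43.8% and Gadd45b 53.3%. The leading family member thus switched from Gadd45b to Gadd45a in 2 of the 3 DRB libraries. The libraries are bulk samples, in which a change in the cells that hold a transcript and a change in RNA per cell cannot be told apart.

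**Figure D2:**
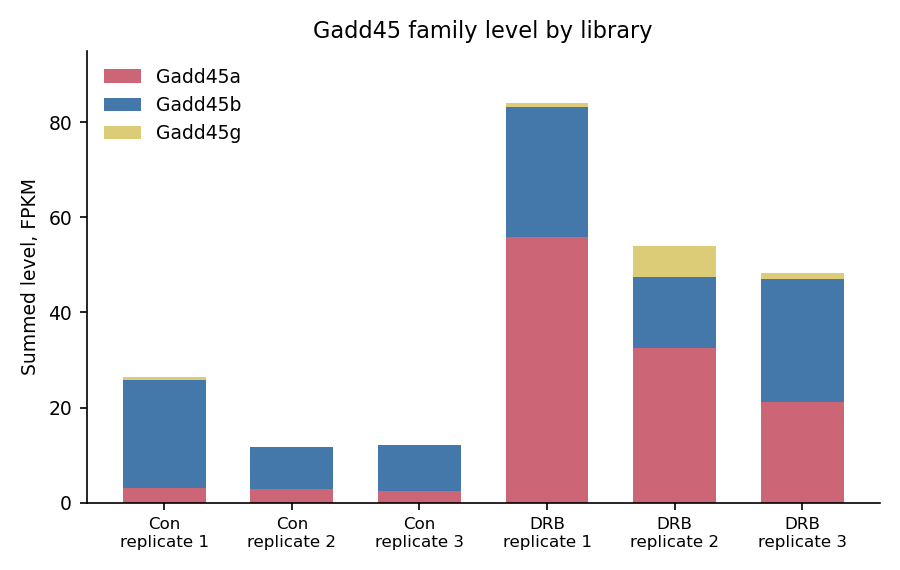
Summed FPKM of Gadd45a, Gadd45b and Gadd45g in each library as stacked bars from 0. The bars of Con embryos reach 11.8 to 26.4 FPKM and are mostly Gadd45b, and those of DRB embryos reach 48.4 to 84.1 FPKM with a larger share of Gadd45a.

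The p53 gene itself, Trp53, was at 5.63, 3.95 and 0.67 FPKM in Con and 3.37, 4.23 and 3.43 FPKM in DRB. The DRB libraries lay inside the range of the Con libraries, whose spread came from the low value of replicate 3. The difference was 0.30 ± 0.53 on the log2(FPKM + 1) scale (SE), and without Con replicate 3 it was -0.30. As background, p53 activity is set mostly by protein stability, which these data do not measure.

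Cdkn1a, whose promoter window holds the response element shown above, stood at 66.32, 32.89 and 30.98 FPKM in Con and 55.32, 43.6 and 49.81 FPKM in DRB. Con replicate 1 was above every DRB library and the other Con libraries were below every DRB library. The difference was 0.27 ± 0.34 on the log2(FPKM + 1) scale (SE). Without Con replicate 1 it was 0.61 and every DRB library lay above Con. In that setting 14.6% of tested genes were higher without overlap, and 32.8% did not overlap in one direction or the other. The level of Cdkn1a was already high in Con, where Cdkn1a and Mdm2 were the most abundant members in every library.

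Mdm2, the feedback inhibitor of p53, was at 39.45, 40.96 and 45.26 FPKM in Con and 64.3, 53.55 and 42.57 FPKM in DRB. Its Con libraries lay close together, DRB replicates 1 and 2 lay above them, and DRB replicate 3 lay among them. The difference was 0.33 ± 0.29 on the log2(FPKM + 1) scale (SE). The groups did not overlap without DRB replicate 3 (difference 0.48) or without Con replicate 3 (0.38). In those settings 16.1% and 13.8% of tested genes were higher in DRB without overlap. In one direction or the other, 35.6% and 33.9% did not overlap.

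Ccng1, the other member with a response element in its window, stood at 5.95, 6.53 and 3.97 FPKM in Con and 3.18, 1.56 and 4.59 FPKM in DRB. DRB replicate 3 was above Con replicate 3, so the groups overlapped, with a difference of -0.71 ± 0.44 on the log2(FPKM + 1) scale (SE). Leaving out either of those libraries ended the overlap, with differences of -0.89 without Con replicate 3 and -0.96 without DRB replicate 3. In those settings 33.9% and 35.6% of tested genes did not overlap, in one direction or the other. Sesn2 was at 5.96, 1.45 and 2.35 FPKM in Con and 9.29, 3.64 and 1.69 FPKM in DRB, with a difference of 0.39 ± 0.58. Sesn2 varied more within each group than between the group means, and the sign of its difference turned without DRB replicate 1 (-0.12).

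Phlda3 was at 2.03, 1.47 and 1.13 FPKM in Con, about 31 to 58 fragments in a library, and was listed at 0, 0 and 0.4 FPKM in DRB. Every DRB library lay below every Con library, with a difference of -1.17 ± 0.37 on the log2(FPKM + 1) scale (SE). Phlda3 reached 1 FPKM in the Con libraries alone, so it could enter the test only as a gene lower in DRB. In all, 3 of the 9 members did not overlap between the groups, Gadd45a and Gadd45g higher and Phlda3 lower. Of all tested genes, which leave out Gadd45g, 23.8% did not overlap, 9.85% higher and 13.9% lower, and nothing is read from the members' count.

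Set against the 5 targets within each library, Gadd45a changed place. On the log2(FPKM + 1) scale its level minus the median level of Cdkn1a, Mdm2, Ccng1, Sesn2 and Phlda3 was -0.78, -0.92 and -0.52 in Con and 2.47, 2.85 and 1.99 in DRB. Every DRB library lay above every Con library for each of the 5 targets taken singly, as the plot of Gadd45a relative to the targets shows. The FPKM ratio of Gadd45a to Cdkn1a was 0.046, 0.091 and 0.080 in Con and 1.01, 0.747 and 0.426 in DRB. To Mdm2 it was 0.078, 0.073 and 0.055 in Con and 0.870, 0.608 and 0.498 in DRB. As a difference of DRB and Con, Gadd45a exceeded the median of the targets (0.27) by 2.92 and the highest of them (Sesn2, 0.39) by 2.80 on the log2(FPKM + 1) scale. Of the 5 targets 3 had a positive difference and 2 a negative one, and all 5 were between -1.17 and 0.39. Gadd45a was chosen for this contrast, so these gaps are descriptions; an exact test of 3 against 3 libraries could not go below a two-sided p of 0.1.

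**Figure D3:**
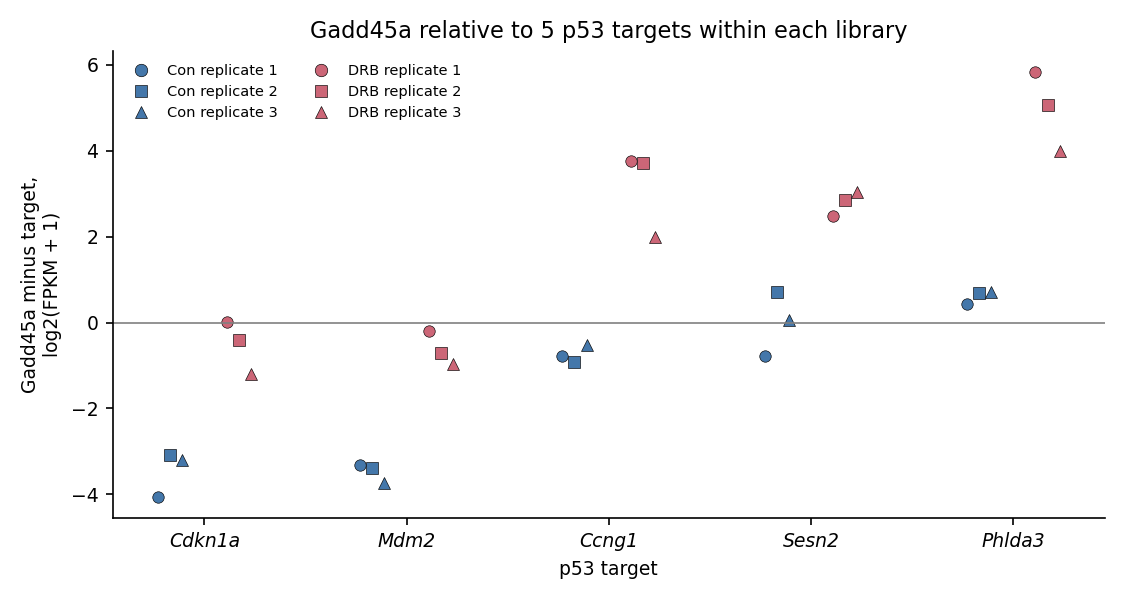
Level of Gadd45a minus that of each p53 target in the same library, in log2(FPKM + 1), with Con in blue and DRB in red and symbols for replicates. For every target the 3 DRB libraries lie above the 3 Con libraries, and against Cdkn1a and Mdm2 the DRB points (-1.19 to 0.02 and -0.97 to -0.20) lie near or below the line at 0.

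The members also varied within the groups. In Con replicate 1, 7 of the 9 were at their highest among Con libraries, all but Mdm2 and Ccng1, where 40.1% of tested genes were highest in that library. DRB replicate 1 had the highest value of 5 members among DRB libraries, namely Gadd45a, Gadd45b, Cdkn1a, Mdm2 and Sesn2, beside 45.1% of tested genes. Over the 6 libraries Pearson's r of log2(FPKM + 1) with Gadd45a was 0.81 for Mdm2, 0.71 for Gadd45g, 0.63 for Gadd45b, 0.44 for Sesn2 and 0.40 for Cdkn1a. It was 0.27 for Trp53, -0.69 for Ccng1 and -0.95 for Phlda3. These 6 points fall into 2 groups, so each r holds the difference of the group means as well as the spread within them.

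By FPKM, Mdm2 and Cdkn1a held the first places in Con and Gadd45b the third in each library, while Gadd45a stood at place 7, 6 and 5 of the 9. In DRB replicates 1 to 3 Gadd45a stood at place 2, 3 and 4. The DRB range of Gadd45a (21.2 to 55.94 FPKM) overlapped those of Mdm2, Cdkn1a and Gadd45b, so its place among them is not set beyond the spread. Gadd45b (14.93 to 27.18 FPKM) lay below Cdkn1a and Mdm2 in every DRB library. The other 5 members were at most 9.29 FPKM in any library.

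The wider pathway was read from 7 lists, which hold 88 tested genes counted once. None was called by limma over all genes tested, and 16 had an unadjusted p below 0.05, beside 2150 of the 11893 tested genes (18.1%). None of the 88 had a difference as large as that of Gadd45a, the range being -1.38 to 1.71 on the log2(FPKM + 1) scale. The groups did not overlap for 22 of them, 14 higher and 8 lower in DRB, beside 9.85% and 13.9% of all tested genes. The median of all tested genes was -0.09, with 44.0% positive.

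Among 16 further p53 targets of arrest and repair, 11 were tested, 6 had a positive difference and the median was 0.28. Every DRB library was above Con in 3 of the 11 and below in 1, beside 9.85% and 13.9% of all tested genes. Plk2, a polo-like kinase, was at 7.85, 4.05 and 8.64 FPKM in Con and 31.57, 15.17 and 27.47 FPKM in DRB, with a difference of 1.71 ± 0.41 (SE) that did not pass (limma adjusted p 0.0588). It passed in 3 of the settings tried, as given in the closing section. Sfn, the 14-3-3 sigma protein, was at 47.01 FPKM in Con and 23.6 in DRB on average, with 89.63 FPKM in Con replicate 1 against 28.44 and 22.96 in the others. Ckap2, a spindle protein, was at 53.8 and 63.7 FPKM, and Sesn1, the closest relative of Sesn2, at 4.85 and 7.99 FPKM.

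Of 17 p53 targets of cell death and metabolism, 10 were tested, 4 had a positive difference and the median was -0.07. In 3 of the 10 every DRB library was above Con and in 3 below, beside 9.85% and 13.9% of all tested genes. Tigar, which lowers glycolytic flux, was at 331.2, 187.45 and 142.9 FPKM in Con and 100.2, 96.7 and 127.3 FPKM in DRB, with groups that did not overlap and a limma adjusted p of 0.157. Ei24, a membrane protein of the endoplasmic reticulum, was at 66.1 FPKM in Con and 102.3 in DRB, and Apaf1, the core of the apoptosome, at 45.3 and 45.5 FPKM.

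Regulators of p53 numbered 18, of which 13 were tested, with 8 positive differences and a median of 0.03. Mdm4, the partner of Mdm2, was at 281.02 FPKM in Con and 313.4 in DRB, and Usp7, which removes ubiquitin from Mdm2 and p53, at 92.9 and 80.7 FPKM. Sirt1, a deacetylase that acts on p53, was at 88.25, 87.55 and 134.69 FPKM in Con and 248.19, 221.39 and 172.04 FPKM in DRB. All its DRB libraries were above the Con libraries, with a difference of 1.05 ± 0.28 (SE) and a limma adjusted p of 0.0796.

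**Figure D4:**
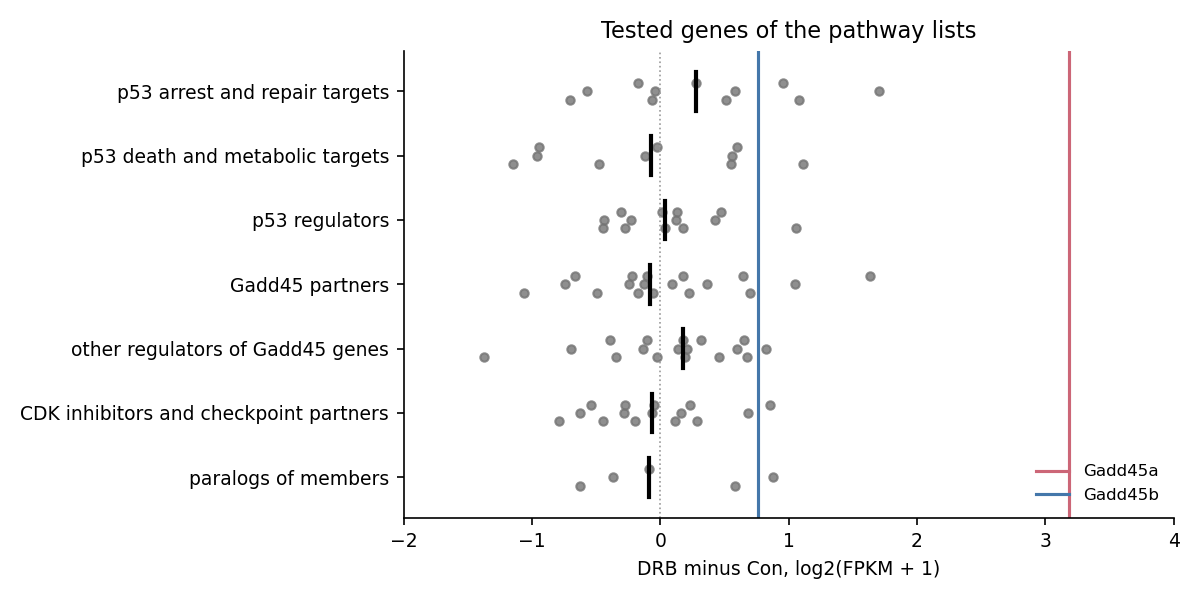
DRB minus Con difference in log2(FPKM + 1) of each tested gene in the 7 pathway lists (grey points), with the median of each list as a black bar and the differences of Gadd45a and Gadd45b as lines. All points lie between -1.38 and 1.71, below the Gadd45a line at 3.19, which 0.378% of all tested genes exceed.

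Proteins that Gadd45 binds or works with were given by 20 genes, of which 18 were tested, 8 had a positive difference and the median was -0.08. Cdk1 and Ccnb1, the mitotic kinase and cyclin that Gadd45a can inhibit, were at 347.9 and 2093 FPKM in Con and 310.1 and 1789 FPKM in DRB. Npm1, a nucleolar chaperone, was at 3497 and 3241 FPKM. These 3 overlapped between the groups (limma adjusted p 0.825 to 0.874).

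Of 23 regulators of Gadd45 genes other than p53, 22 were found in the files and 17 were tested, with 10 positive differences and a median of 0.17. Nfyb, a subunit of the NF-Y factor that binds CCAAT, was at 155.38, 162.84 and 143.56 FPKM in Con and 217.77, 338.95 and 274.68 FPKM in DRB, without overlap (difference 0.82 ± 0.26 SE, limma adjusted p 0.125). The NF-Y subunit genes Nfya and Nfyc, named after their values were seen, overlapped between the groups (limma adjusted p 0.644 and 0.977). Nfya was at 6.62 FPKM in Con and 8.7 in DRB on average, and Nfyc at 43.6 and 43.2 FPKM. The RNA-binding proteins Hnrnpd and Tial1, which hold Gadd45a mRNA in check in other cells, were at 96.7 and 76.6 FPKM in Con and 110.6 and 97.2 FPKM in DRB. Pou2f1, the octamer-binding Oct-1, was low in both groups, at 0.67 to 1.86 FPKM in Con and 1.61 to 4.13 in DRB. It is named here after its values were seen, because of the octamers in the Gadd45a promoter.

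CDK inhibitors and checkpoint partners counted 21 genes, of which 15 were tested, 6 had a positive difference and the median was -0.07. Ccna2, Ccne1 and Cdk4, which drive the cycle forward, were at 492.9, 105.2 and 55.96 FPKM in Con and 557.4, 129.2 and 36.03 FPKM in DRB. Cdk4 was lower in all DRB libraries than in any Con library (limma adjusted p 0.279), and the other 2 overlapped. Of the 7 paralogs, 5 were tested and 2 had a positive difference. Phlda2, an imprinted relative of Phlda3, was at 87.44 to 413.4 FPKM over all libraries and overlapped between groups. Sesn3, Ccng2 and Gadd45gip1, the last a mitochondrial protein that binds Gadd45 proteins, overlapped too, at 2.11, 1.42 and 56.3 FPKM in Con and 1.88, 3.12 and 43.2 FPKM in DRB. Phlda1 and Ccni stayed below the filter and were not tested, though every DRB library was above Con for both. Phlda1 was at 0.15 to 0.55 FPKM in Con and 0.6 to 0.69 in DRB. Ccni was at 0.21 to 0.39 FPKM in Con and 0.95 to 7.92 in DRB.

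The genes most like Gadd45a were sought among 577 tested genes with an SD of at least 1 over the libraries, by Pearson's r of log2(FPKM + 1) over the 6 libraries. The first 6 were Scamp1, a secretory carrier protein (r = 0.998), Ier5, an immediate early gene (0.996), Gcnt2, a branching glycosyltransferase (0.995), Slc35e3, a solute carrier family member (0.990), Lonp2, a peroxisomal protease (0.990), and Ppp1r15a, known as Gadd34 (0.990). Ppp1r15a shares its old name with the Gadd45 genes, as growth arrest and DNA damage genes, but its product directs protein phosphatase 1 to eIF2 alpha. It was at 23.24, 25.98 and 18.02 FPKM in Con and 96.7, 84.28 and 64.57 FPKM in DRB. Scamp1 was at 9.38, 8.61 and 9.01 FPKM in Con and 118.36, 83.5 and 54.34 FPKM in DRB, in the same order of DRB replicates as Gadd45a. All 6 were called higher in DRB, as any gene this like Gadd45a would be, so the likeness is no separate result. Ier5 reached 1 FPKM in the DRB libraries alone, so it could enter the test only as a gene higher in DRB. Slc35e3 lies 22920 bases from Mdm2 on chromosome 10 with no gene of the files wholly between them, yet Slc35e3 was at 3.54 ± 1.09 and 26.9 ± 12.8 FPKM where Mdm2 was at 41.9 ± 3.01 and 53.5 ± 10.9 FPKM (SD, n = 3).

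**Figure D5:**
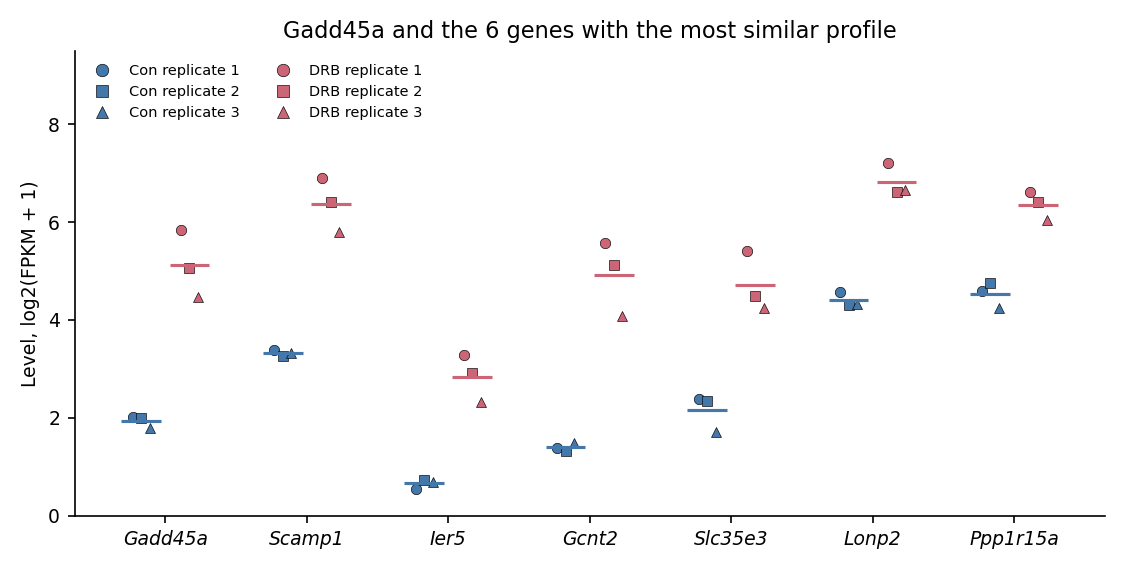
Level of Gadd45a and of the 6 genes with the highest Pearson's r to it, in log2(FPKM + 1), with Con in blue, DRB in red, symbols for replicates and bars for group means. In all 7 the DRB libraries lie above the Con libraries, and in all 7 DRB replicate 1 is the highest.

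Genes that carry the same promoter elements were then counted over the whole table, as a description. Of 7912 tested genes with a window and a symbol held once, 0.973% were called higher and the median difference was -0.10 on the log2(FPKM + 1) scale. The 122 of them with an octamer had a median of -0.05, and 5 were called higher and 2 lower. The 5 were Gadd45a, Gcnt2, Tas2r107, Gm4513 and Gm4565, and the 2 were Vpreb3 and Gm32856, all named with their values known. Gm4513 and Gm4565 have the same difference and may share reads. With 2 or more octamers there were 10 tested genes with a median of 0.20, of which Gadd45a alone was called. The 5 tested genes with a p53 response element in the window were Ccng1, Cdkn1a, Gtse1, Mthfd1 and Rps27l. Their differences were -0.71, 0.27, -0.17, -0.47 and -0.14, and none was called, with 0 of 5 at an unadjusted limma p below 0.05.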

How the data were processed

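RNA was measured in 6 Smart-Seq2 libraries, 3 Con and 3 DRB, grouped by the treatment label. The authors deposited FPKM per gene with 2 decimals, per the file headers. Reads were handled with cutadapt 1.16 and STAR on mm10, per the submitters' processing notes (the program that made the FPKM: not given in the sources used here). Each FPKM is relative to its library's total. Genes with at least 1 FPKM in at least 3 libraries (11893) were log2-transformed after adding a pseudocount of 1 and fitted by limma 3.58.1 (R 4.3.3) with its trend option, group as the single term and two-sided Benjamini-Hochberg adjusted p-values called below 0.05. Fold changes on that scale understate changes of low genes. The fit was tested on simulated data.

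For depth, low values of single-transcript genes were used, since these move in steps of 1 fragment; 76.5% to 82.8% of them lay within 0.15 of a whole number, too few to rebuild reads. Coordinates come from GENCODE M21 (GRCm38, the assembly of mm10), in which all 9 members were found, and promoters from RefSeq windows (GRCm38.p6), found for all 9 by symbol. The sources used here do not state whether replicates are separate cultures. The p-values therefore reflect only how these libraries vary, which may be technical variation.

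The members, lists and alternatives were chosen with earlier results of these data known. The text names every member, the called and the 3 most abundant tested genes of each pathway list, all paralogs, and the 6 genes most like Gadd45a. Alternatives were another pseudocount and other filters, a replicate block, leaving out each library, and 3 scalings. The motifs were chosen after the members' values were seen. Python 3.11.15 with pandas 2.3.3 made the tables and matplotlib 3.10.9 the plots.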

Additional observations from a re-analysis of the deposited data

How the results depend on the processing

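The difference of Gadd45a stayed between 2.83 and 3.53 on the log2 scale in all 13 alternatives. Gadd45a was called in 12 of them, all but the one with no filter. The alternatives reuse the libraries in which Gadd45a was singled out, so these calls only describe how the result depends on processing. Its excess over the median of the 5 targets was 2.92, and it was 3.26 with a pseudocount of 0.1 and 2.89 to 3.25 otherwise. Without 1 library the excess ranged from 2.90 to 3.25. The sign turned for Sesn2 without DRB replicate 1 and for Trp53 without Con replicate 3. With the pseudocount of 0.1 the low genes Gadd45g and Phlda3 had differences of 3.34 and -3.23, as a smaller pseudocount widens changes of low values. The median of 6 of the 7 pathway lists changed sign in 1 to 5 alternatives, that of the regulators other than p53 in 0. Leaving out mitochondrial genes shifted the median of all genes from -0.09 to 0.02. Plk2 was called with the minimum of 5 FPKM, with median-of-ratios and with upper-quartile scaling, and Ercc5, a Gadd45a-binding repair nuclease, with median-of-ratios scaling; 0 pathway genes were called in the other alternatives.

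Of all tested genes, 295 were called, 182 higher and 113 lower. A pseudocount of 0.1 gave 164 (113 higher, 51 lower), and no filter gave 6 (6 higher, 0 lower), with 2569 at an unadjusted limma p below 0.05. Without mitochondrial genes 72 were lower. Without 1 library 47 to 220 were changed, 34 to 139 higher and 13 to 81 lower; the lowest of each came without DRB replicate 1, and 148, 110, 106, 151 and 220 were changed without Con replicates 1, 2 and 3 and DRB replicates 2 and 3. The cause was not tested. With the replicate block 171 genes changed, 44 of them lower. No source says what the numbers mark, and deviations of same-numbered libraries correlated at -0.051 to 0.053, which shows no pairing. The block changed no call of a member.

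Phlda3, Gadd45g and Trp53 rest on few fragments in some libraries, and changes of low genes are poorly resolved at this depth.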

Other observations

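Wrap53, the gene next to Trp53 on the opposite strand with 103 bases between them, encodes a protein of Cajal bodies and of telomerase assembly. It stood at 12.03, 12.05 and 14.14 FPKM in Con and 5.02, 6.45 and 4.71 FPKM in DRB. Every DRB library lay below every Con library, with a difference of -1.11 ± 0.36 on the log2(FPKM + 1) scale (SE, limma adjusted p 0.133), while Trp53 overlapped between the groups. It was named after its values were seen.

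Of the 22 tested pathway genes whose groups did not overlap, 17 were not taken by the naming rule and are given here after their values were seen. Of these, 8 are p53 targets, 5 higher and 3 lower in DRB. Ppm1d, the p53-induced phosphatase that shuts the pathway off, was at 5.25, 2.69 and 2.11 FPKM in Con and 14.31, 5.68 and 5.58 FPKM in DRB. Plk3, a stress kinase, was at 1.26, 0.59 and 1.54 FPKM in Con and 2.3, 3.11 and 3.87 FPKM in DRB. Pmaip1, the death protein Noxa, was at 1.05, 0.33 and 1.45 FPKM in Con and 3.32, 4.14 and 2.04 FPKM in DRB. These 3 and Trp53inp1 (17.06 to 20.56 FPKM in Con, 24.1 to 33.61 in DRB) and Pidd1 (2.46 to 3.43 in Con, 3.44 to 9.65 in DRB) were the ones higher in DRB. Bax, a pore-forming death protein, was lower, at 55.02, 38.13 and 26.17 FPKM in Con and 14.01, 21.7 and 22.61 FPKM in DRB. So were the death receptor gene Tnfrsf10b (9.23 to 10.69 FPKM in Con, 6.1 to 8.4 in DRB) and the DNA polymerase gene Polk (1.82 to 2.49 in Con, 0.51 to 1.72 in DRB).

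Among genes that work with Gadd45 proteins, Ercc5 was at 2.99, 5.7 and 3.3 FPKM in Con and 18.76, 16.56 and 8.97 FPKM in DRB. Pcna, the replication clamp that Gadd45 proteins bind, was at 82.47, 77.72 and 73.33 FPKM in Con and 135.94, 100.5 and 132.2 FPKM in DRB. Of the same genes, Ing1 and Mapk8 were higher in DRB too, and Map2k6 lower. Among CDK inhibitors and checkpoint partners, Ccne2 and Cdk2 were higher in DRB and Ccnd3 lower. Cebpa, from the regulators of Gadd45 genes other than p53, was lower. Map2k6 reached 1 FPKM in the Con libraries alone, so it could enter the test only as a gene lower in DRB. None of the 17 passed the limma test over all genes (adjusted p 0.0692 for Ercc5 to 0.544 for Pidd1), and 23.8% of all tested genes did not overlap. Below the filter, Psrc1, a further p53 target, was at 3.35, 3.65 and 0.38 FPKM in Con and 0.2, 0.09 and 0.05 FPKM in DRB.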
